A study of Mus musculus with 22 samples.

Results

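Cholesterol genes in whole mouse testes were followed through 30 genes for its synthesis, uptake, transport and storage, read out of a table of RNA sequencing counts for 17931 gene symbols. The members were listed by name and role and not selected on their values, though earlier results of these data were known. All 30 had enough counts for testing. Testes came from 3 WT males, verified fertile breeders, and 3 MLX KO males, their age-matched littermates, all 7 months old and untreated. Littermate pairs share the numbers 1 to 3, so that WT1 is paired with KO1. MLX is a transcription factor that binds DNA as a dimer with the glucose-sensing proteins MondoA and ChREBP. The KO allele, made by gene targeting in 129S4 embryonic stem cells, lacks the exons encoding the dimerization and DNA-binding region in every cell of the body, and the Meox2-Cre allele used to delete it was crossed out again. The sources used here describe 2 independent lines and do not say which line each animal came from. The series holds 22 samples in all, and its other samples were not analysed here.

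Cells make cholesterol from acetyl-CoA, first as isoprenoids through mevalonate, then as the linear hydrocarbon squalene, then as lanosterol, the first ring-closed sterol, which a chain of enzymes trims and rearranges into cholesterol. The transcription factor SREBP2 switches on most of these genes when sterols run low, and a complex of SCAP with INSIG proteins in the endoplasmic reticulum holds it back when they are plentiful. Cells also take up cholesterol in lipoproteins, release it in lysosomes and store it as esters. In the testis, Leydig cells turn cholesterol into testosterone, Sertoli cells nurse the germ cells and take up the residues they shed, and spermatocytes and spermatids make sterols of their own.

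In MLX KO testes, 18 of the 30 cholesterol genes rose and 1, the squalene synthase gene *Fdft1*, fell at an adjusted p under 0.05 (quasi-likelihood test in edgeR, adjusted over 14640 genes by the method of Benjamini and Hochberg). Over all genes tested, 24.8% rose and 20.6% fell at the same threshold. The median log2 fold change (LFC, MLX KO minus WT) of the members was 0.47, against 0.03 over all genes tested. The calls are given by step of the pathway. Of the 8 enzymes from lanosterol to cholesterol, 7 rose, with a median LFC of 0.83 for the group, while of the 8 enzymes from acetyl-CoA to isoprenoids 2 rose and 6 did not pass the threshold, with a median LFC of 0.12. Of the 3 enzymes from squalene to lanosterol 1 rose and 1 fell (median LFC -0.05). Of the 4 sterol-sensing regulators 3 rose (median LFC 0.34), and of the 7 genes for lysosomal release, transport and storage 5 rose (median LFC 0.68). These medians describe the groups, and no difference between groups was tested. The largest increases were those of *Msmo1*, *Lipa* and *Dhcr7*, the only members with a change of over 2-fold that passed the threshold.

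**Figure D1:**
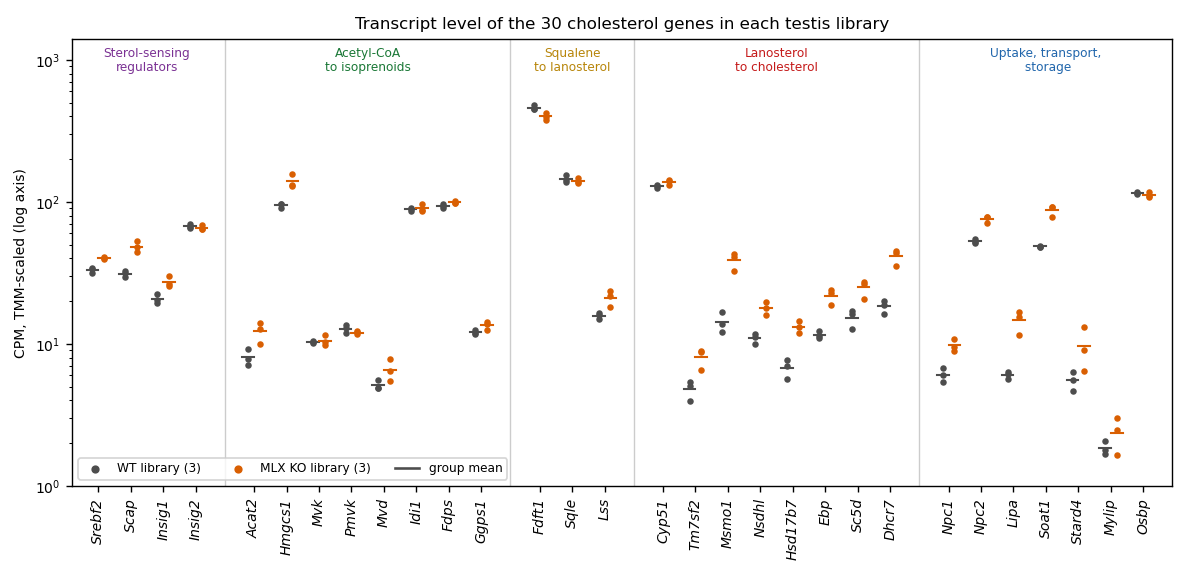
CPM of each of the 30 cholesterol genes in each library, on a log axis, with genes grouped by their step in the pathway. Gray points are the 3 WT and orange points the 3 MLX KO libraries, and bars are group means. The groups are apart for every member past the threshold, as from *Tm7sf2* to *Dhcr7* with MLX KO on top and for *Fdft1* with WT on top. The test favors genes with separate groups, so this adds no support to the calls. The groups are also apart for *Cyp51* and *Fdps*, which did not pass the threshold. The share of all genes with the groups apart was not counted.

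The 6 libraries held between 16674700 and 19742700 counts. Values in CPM are counts divided by the library total and its TMM factor, and are listed in the order of replicates 1, 2 and 3. The count on *Mlx* covers the whole gene and does not check the deletion: the WT libraries had 128, 96 and 98 counts and the MLX KO libraries 94, 109 and 102. Whole testes hold several cell types, and fewer cells of a type and less RNA per cell cannot be told apart.

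Of the regulators, *Srebf2*, *Scap* and *Insig1* rose. *Srebf2*, which encodes the SREBP2 precursor, was at 31.6, 33.8 and 34.0 CPM in WT and 39.7, 40.0 and 40.9 CPM in MLX KO testes. All MLX KO libraries lay above all WT libraries, yet the LFC was 0.28 (SE 0.06, adjusted p = 0.00329 from edgeR). With the littermate pair as a block in DESeq2 the LFC was 0.25 and its adjusted p 0.0652, and *Srebf2* was past the threshold in the other 13 alternatives. *Scap* encodes the escort that carries SREBP2 from the endoplasmic reticulum to the Golgi, where it is cut into its active form. It lies at chr9:110333288-110384949 of mm10 and had 29.7, 31.4 and 32.4 CPM in WT and 44.2, 52.8 and 48.3 CPM in MLX KO testes, from 31.2 ± 1.35 to 48.4 ± 4.34 CPM on average (SD, n = 3 each). Its groups did not overlap (LFC 0.64, SE 0.07, adjusted p = 8.63e-05 from edgeR), the largest LFC among the regulators. Exons of *Scap* overlap a transcript on the other strand, and 10.0% of its 50-base stretches occur in other genes.

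*Insig1* and *Insig2* encode the proteins that retain SCAP in the endoplasmic reticulum. *Insig1*, itself a target of SREBP2, had 19.5, 20.5 and 22.4 CPM in WT and 25.8, 26.5 and 30.1 CPM in MLX KO testes. The highest WT library, WT3, stayed below the lowest MLX KO library, KO1 (LFC 0.40, SE 0.09, adjusted p = 0.00322 from edgeR). *Insig2* had 65.7, 69.7 and 67.0 CPM in WT and 68.5, 64.9 and 64.3 CPM in MLX KO testes, with overlapping groups (LFC -0.03, SE 0.05, adjusted p = 0.631 from edgeR). Per kb of exon, *Insig2* was the more abundant of the pair, at 19.4 CPM per kb in WT testes against 6.73 for *Insig1*.

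**Figure D2:**
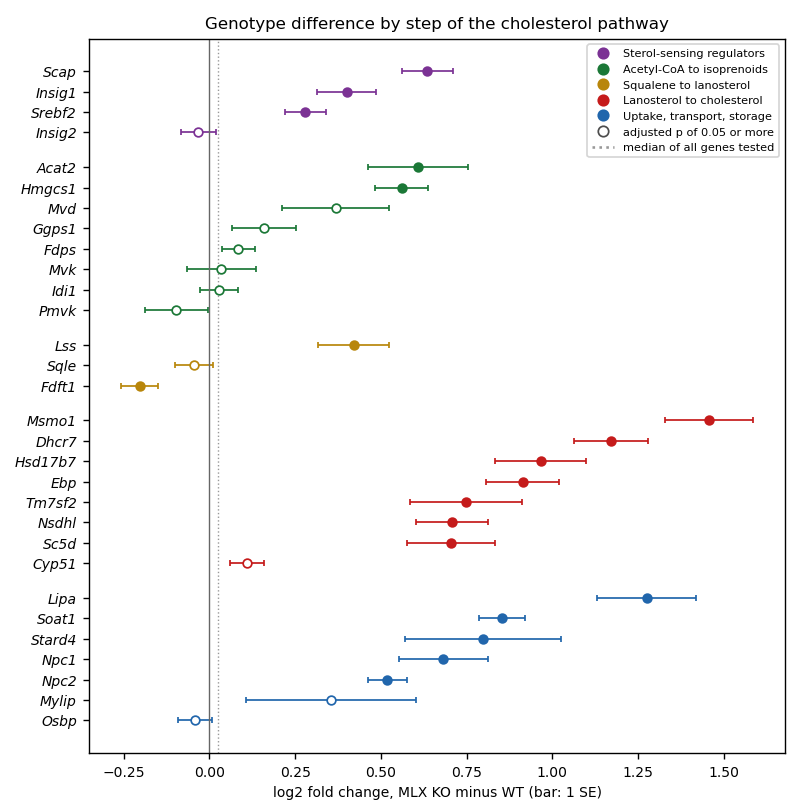
LFC of each member (MLX KO minus WT, with a bar of 1 SE from edgeR), sorted within each step of the pathway. Filled points passed an adjusted p of 0.05, open points did not, and the dotted line is the median of all genes tested. From *Msmo1* at 1.46 down to *Sc5d* at 0.70 the enzymes after *Cyp51* lie to the right, while most isoprenoid enzymes sit near the dotted line.

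From acetyl-CoA to isoprenoids, *Acat2* and *Hmgcs1* rose. Both act in the first reactions, *Acat2* by joining acetyl-CoA units to acetoacetyl-CoA and *Hmgcs1* by adding another to form HMG-CoA. *Hmgcs1*, at chr13:119690351-119708260, had 90.0, 97.1 and 96.7 CPM in WT and 129, 131 and 158 CPM in MLX KO testes, from 94.6 ± 3.98 to 139 ± 16.3 CPM on average (SD, n = 3 each). KO3 was the highest library and the groups were well apart (LFC 0.56, SE 0.08, adjusted p = 0.000207 from edgeR). A transcript on the other strand overlaps 12.1% of its exon bases. *Acat2* had 7.86, 9.22 and 7.16 CPM in WT and 9.96, 14.2 and 12.8 CPM in MLX KO testes (LFC 0.61, SE 0.15, adjusted p = 0.00585 from edgeR). The lowest MLX KO library, KO1, was only just above the highest WT library, WT2. Of the 50-base stretches of *Acat2*, 39.1% occur in other genes, most of them in its close copy *Acat3* and in *Tcp1*, so reads could have been split between them and the value is uncertain.

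The next 3 enzymes, which phosphorylate mevalonate and decarboxylate it to isopentenyl diphosphate, did not pass the threshold. The mevalonate kinase gene *Mvk* had 10.2, 10.2 and 10.4 CPM in WT and 11.5, 10.3 and 9.85 CPM in MLX KO testes (LFC 0.03, adjusted p = 0.802 from edgeR). The phosphomevalonate kinase gene *Pmvk* had 13.6, 11.9 and 13.0 CPM in WT and 12.1, 11.7 and 12.3 CPM in MLX KO testes (LFC -0.10, adjusted p = 0.419 from edgeR). In both, the groups overlapped. *Mvd*, the decarboxylase gene, had 4.90, 5.53 and 4.91 CPM in WT and 5.47, 6.42 and 7.89 CPM in MLX KO testes. It was higher in 3 of 3 pairs, but KO1 lay below WT2 (LFC 0.37, SE 0.16, adjusted p = 0.0756 from edgeR). Without KO1, and with library size as the only scaling, *Mvd* passed the threshold, with LFCs of 0.49 and 0.51, and without KO3 its LFC was 0.22 (adjusted p = 0.304).

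The 3 enzymes that follow build the longer isoprenoids. *Idi1*, which interconverts the building blocks, had 89.5, 90.2 and 85.8 CPM in WT and 96.7, 86.2 and 87.3 CPM in MLX KO testes, with overlapping groups (LFC 0.03, adjusted p = 0.721 from edgeR). *Fdps* makes farnesyl diphosphate, the branch point toward sterols, and had 96.2, 94.2 and 90.3 CPM in WT and 97.7, 102 and 98.3 CPM in MLX KO testes, where each MLX KO library was just above the highest WT library (LFC 0.08, adjusted p = 0.17 from edgeR). *Ggps1*, whose product is used for attaching lipids to proteins and not for sterols, had 11.8, 12.0 and 12.5 CPM in WT and 13.8, 12.4 and 14.3 CPM in MLX KO testes, where KO2 was below WT3 (LFC 0.16, adjusted p = 0.185 from edgeR). Each of these 3 genes passed the threshold and was higher with scaling by library size alone, a setting that moves the median LFC of all genes up by 0.14. Shares of 25.3% of the 50-base stretches of *Idi1* and 26.2% of those of *Fdps* occur in other genes, among them gene copies and overlapping transcripts.

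*Fdft1* encodes squalene synthase, the first enzyme that commits isoprenoids to sterols, and was the most abundant member per kb of exon, at 109 CPM per kb in WT testes. It lies at chr14:63145150-63181687. The WT libraries had 451, 480.4 and 454 CPM and the MLX KO libraries 426, 379 and 398 CPM, so that every MLX KO library was below every WT library. Its mean fell from 462 ± 16.1 CPM in WT to 401 ± 23.4 CPM in MLX KO testes (SD, n = 3 each). The LFC was -0.20 with an SE of 0.06 (adjusted p = 0.0107 from edgeR). The call was lost without WT2 (LFC -0.18, adjusted p = 0.0599), without KO2 (LFC -0.16, adjusted p = 0.0607) and with library size alone (LFC -0.07, adjusted p = 0.201). Exons of *Ctsb* on the other strand overlap 18.3% of its exon bases, and the strand used in counting is not given in the sources used here. Of all its 50-base stretches 26.5% occur in other genes.

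Of the other two enzymes of this stretch, *Lss* rose and *Sqle* did not pass the threshold. *Sqle*, which oxidizes squalene in a rate-limiting step, had 138, 154 and 143 CPM in WT and 138, 137 and 147 CPM in MLX KO testes, with overlapping groups (LFC -0.05, adjusted p = 0.525 from edgeR). *Lss*, which closes the rings to lanosterol, had 15.1, 16.5 and 16.0 CPM in WT and 18.1, 23.6 and 21.9 CPM in MLX KO testes, with KO1 nearest to the WT libraries (LFC 0.42, SE 0.10, adjusted p = 0.00671 from edgeR). In WT testes *Lss* was far below its neighbours in the pathway, at 1.47 CPM per kb of exon against 26.2 for *Sqle* and 29.1 for *Cyp51*.

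*Cyp51*, which encodes the demethylase that acts first on lanosterol, was the only one of the 8 enzymes of this stretch that did not pass the threshold. It had 132, 129 and 126 CPM in WT and 133, 144 and 140.2 CPM in MLX KO testes, and although the groups did not overlap, the LFC was 0.11 (SE 0.05, adjusted p = 0.0907 from edgeR). *Cyp51* passed the threshold without KO1 (LFC 0.14, adjusted p = 0.0166) and with library size alone (LFC 0.25, adjusted p = 0.00353). *Tm7sf2*, a reductase of the double bond that CYP51 leaves, had 5.06, 5.41 and 3.95 CPM in WT and 6.60, 8.85 and 8.73 CPM in MLX KO testes. All MLX KO libraries were above all WT libraries (LFC 0.75, SE 0.16, adjusted p = 0.00343 from edgeR). Its exons overlap those of *Vps51* on the same strand over 12.1% of their length.

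*Msmo1*, *Nsdhl* and *Hsd17b7* encode the enzymes that together remove the paired methyl groups of the sterol A ring, and all 3 rose. *Msmo1*, the methyl oxidase gene, at chr8:64718123-64733578, had 13.8, 16.7 and 12.1 CPM in WT and 32.5, 41.0 and 43.1 CPM in MLX KO testes. It went from 14.2 ± 2.33 to 38.9 ± 5.64 CPM on average (SD, n = 3 each), 2.75-fold, and the lowest MLX KO library was well above the highest WT library (LFC 1.46, SE 0.13, adjusted p = 1.53e-05 from edgeR). No member changed more. *Nsdhl*, the dehydrogenase gene that acts next, had 11.2, 11.7 and 10.0 CPM in WT and 16.0, 19.9 and 17.9 CPM in MLX KO testes (LFC 0.71, SE 0.10, adjusted p = 0.000379 from edgeR). *Hsd17b7*, at chr1:169949535-169969242, encodes the ketoreductase that completes the cycle and had 6.96, 7.76 and 5.64 CPM in WT and 12.0, 13.1 and 14.6 CPM in MLX KO testes. Its mean rose 1.95-fold with no overlap of the groups (LFC 0.97, SE 0.13, adjusted p = 0.00022 from edgeR).

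The last enzymes before cholesterol rose as well. *Ebp*, the isomerase gene, at chrX:8185329-8193512, had 11.4, 12.4 and 10.9 CPM in WT and 18.8, 22.7 and 23.9 CPM in MLX KO testes (LFC 0.91, SE 0.11, adjusted p = 8.09e-05 from edgeR). *Ebp* and *Nsdhl* are the 2 members on chromosome X, which is silenced during male meiosis. *Sc5d*, the desaturase gene, had 16.2, 17.0 and 12.7 CPM in WT and 20.8, 27.5 and 26.6 CPM in MLX KO testes, where WT3 was the lowest and KO1 the lowest of its group (LFC 0.70, SE 0.13, adjusted p = 0.00122 from edgeR). *Dhcr7* encodes the reductase that makes cholesterol from its immediate precursor, a sterol that is also the source of vitamin D. At chr7:143823167-143848410, it had 16.2, 18.7 and 20.1 CPM in WT and 35.3, 45.0 and 43.6 CPM in MLX KO testes, from 18.4 ± 1.97 to 41.3 ± 5.26 CPM on average (SD, n = 3 each). This was a 2.25-fold increase with widely separated groups (LFC 1.17, SE 0.11, adjusted p = 1.93e-05 from edgeR). Summed over the 8 enzymes from *Cyp51* to *Dhcr7*, the level was between 201.0 and 218 CPM in WT and between 275 and 322 CPM in MLX KO libraries, and *Cyp51* alone made up the larger part of the WT sums.

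*Lipa*, *Npc1* and *Npc2*, whose products act in the lysosome, rose. *Lipa* encodes the acid lipase that frees cholesterol from the esters that enter the lysosome, at chr19:34492316-34527474. It had 5.64, 6.11 and 6.37 CPM in WT and 11.6, 16.9 and 15.4 CPM in MLX KO testes, from 6.04 ± 0.370 to 14.6 ± 2.72 CPM on average (SD, n = 3 each). This was a 2.42-fold increase, and KO1 again lay between the WT libraries and KO2 and KO3 (LFC 1.28, SE 0.14, adjusted p = 6.99e-05 from edgeR). *Npc1* and *Npc2* encode the membrane and the soluble protein that pass free cholesterol out of the lysosome. *Npc1* had 6.01, 5.41 and 6.82 CPM in WT and 8.98, 10.8 and 9.53 CPM in MLX KO testes (LFC 0.68, SE 0.13, adjusted p = 0.00155 from edgeR). *Npc2* had 52.4, 55.1 and 51.3 CPM in WT and 71.5, 77.8 and 78.0 CPM in MLX KO testes (LFC 0.52, SE 0.06, adjusted p = 4.94e-05 from edgeR). In neither gene did the groups overlap.

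*Soat1* encodes the enzyme that turns free cholesterol into esters for storage in lipid droplets. At chr1:156428108-156474328, it had 48.5, 48.5 and 48.7 CPM in WT libraries, nearly the same value in each, and 78.4, 92.0 and 92.8 CPM in MLX KO libraries. It rose from 48.6 ± 0.120 to 87.7 ± 8.07 CPM (SD, n = 3 each), 1.80-fold, and had the lowest adjusted p of all members (LFC 0.85, SE 0.07, adjusted p = 7.98e-06 from edgeR). *Stard4*, a soluble sterol carrier gene, had 6.33, 5.60 and 4.68 CPM in WT and 13.3, 6.47 and 9.11 CPM in MLX KO testes. KO1 was the highest and KO2 was only just above WT1 (LFC 0.80, SE 0.23, adjusted p = 0.0147 from edgeR). Its LFC was 0.50 without KO1 (adjusted p = 0.0411), and without WT3 it was 0.69 and no longer past the threshold (adjusted p = 0.0532). *Mylip*, which encodes a ligase that marks lipoprotein receptors for degradation, was not past the threshold, at 1.85 ± 0.209 CPM in WT and 2.38 ± 0.675 CPM in MLX KO testes (SD, n = 3 each). The libraries held between 28 and 54 counts of it, the fewest of any member, and its LFC of 0.35 had an SE of 0.25 (adjusted p = 0.266 from edgeR). Leaving out KO1 gave an LFC of 0.56 and leaving out KO2 one of 0.16, neither past the threshold. *Osbp*, which encodes an exchanger of sterols between membranes, had 114, 118 and 116 CPM in WT and 118, 111 and 109 CPM in MLX KO testes, with overlapping groups (LFC -0.04, adjusted p = 0.513 from edgeR).

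The LFC of the members was also set against their level. By CPM per kb of exon, averaged over all 6 libraries, the 10 highest members had a median LFC of 0.06, with 3 that rose (*Hmgcs1*, *Npc2* and *Insig1*), 1 that fell (*Fdft1*) and 6 not past the threshold. The median LFC was 0.71 for the 10 in the middle, 9 of which rose, and 0.55 for the 10 lowest, 6 of which rose. Over the 30 members, level and LFC were correlated at a Spearman rho of -0.541 and, on the log level, a Pearson r of -0.542. The members share the same 6 libraries, so that this is a description across genes. The same relation was not computed over all genes tested, so it is not shown to be particular to the members. Over all genes tested the median LFC was 0.025, while their summed CPM in MLX KO was 0.908 of that in WT. In WT testes the order from the top was *Fdft1*, then *Cyp51*, *Sqle*, *Osbp*, *Idi1* and *Fdps*, between 29.1 and 22.2 CPM per kb, then *Hmgcs1* at 20.6. At the bottom were *Lipa* at 0.891, *Mylip* at 0.573 and *Npc1* at 0.537 CPM per kb. In MLX KO testes *Hmgcs1*, at 30.3 CPM per kb, was above *Sqle* at 25.3, and *Lipa* was at 2.16.

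**Figure D3:**
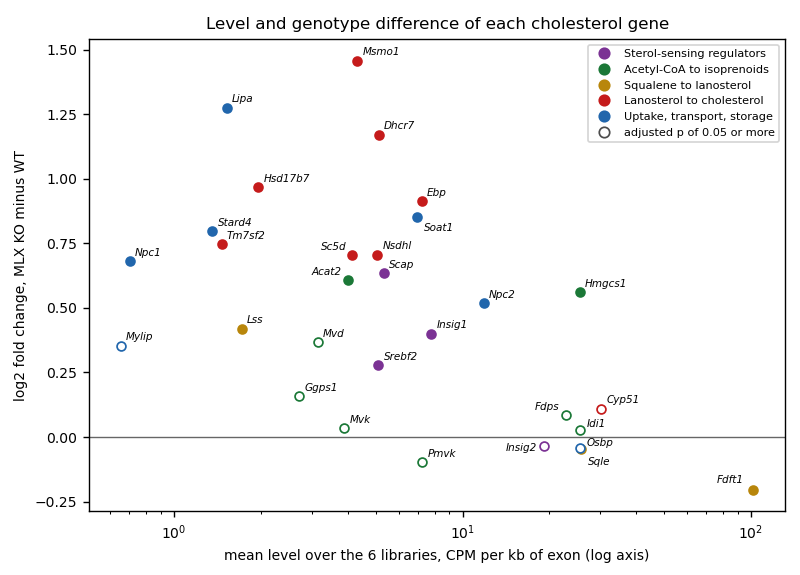
LFC of each member (MLX KO minus WT) against its mean level over the 6 libraries, in CPM per kb of exon on a log axis. Filled points passed an adjusted p of 0.05. Of the members above 10 CPM per kb, *Hmgcs1* and *Npc2* lie above an LFC of 0.5, and the others lie between -0.20 and 0.11.

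The MLX KO libraries did not move equally. KO1 had the lowest CPM of the MLX KO libraries for 17 of the 18 members that rose, the exception being *Stard4*. Over all 3634 genes that rose, KO1 was lowest for 71.9%. By littermate pair, the median log2 ratio over the 30 members was 0.35 in pair 1, 0.46 in pair 2 and 0.52 in pair 3, with 26, 24 and 25 members higher in MLX KO. For the 8 enzymes from lanosterol to cholesterol the medians were 0.61, 0.75 and 1.12, and all 8 were higher in each pair. For the 8 enzymes from acetyl-CoA to isoprenoids they were 0.16, 0.08 and 0.16. Without KO1, 20 members rose and 1 fell.

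Markers of testis cell types moved between the genotypes as well, counted at the same threshold. All 8 Leydig cell markers were higher in MLX KO testes, and their summed level went from between 865 and 885 CPM to between 1859 and 2446 CPM. All 12 Sertoli cell markers were higher, from between 1248 and 1297 to between 1851 and 2261 CPM. Of the 10 macrophage markers 9 were higher and 1, *Fcgr3*, lower, from between 105 and 149 to between 197 and 205 CPM. *Fcgr3*, a large part of these WT sums, had 62.7, 60.9 and 17.0 CPM in WT and 18.5, 20.3 and 18.95 CPM in MLX KO testes, with overlapping groups. Of the 5 peritubular myoid markers 4 were higher, from between 72.1 and 87.1 to between 108 and 119 CPM. For endothelial cells 2 of 7 markers were higher, from between 43.1 and 52.6 to between 60.5 and 66.2 CPM. All 10 markers of elongating spermatids were lower, from between 23430 and 24390 to between 13870 and 17010 CPM, as were all 9 of round spermatids, from between 1956 and 1988 to between 1638 and 1732 CPM, and 8 of 10 of spermatocytes, from between 1857 and 1910 to between 1624 and 1703 CPM. Of the 7 spermatogonia markers tested 2 were higher, from between 108 and 115 to between 131 and 141 CPM over the list. No marker that was tested was at 0 in any library. KO1 lay nearest to the WT libraries for the summed markers of every cell type listed, as it did for 17 of the 18 members that rose. Over all genes that rose, KO1 was the lowest MLX KO library for 71.9%, so this order is not particular to the members or to a cell type. The part of cell type shares in the members' differences was not tested.

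**Figure D4:**
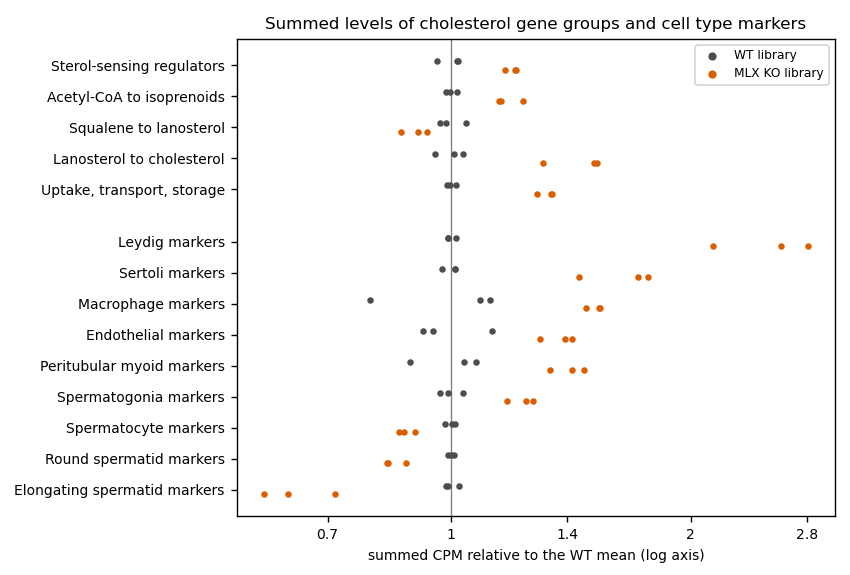
Summed CPM of the members by step of the pathway and of the cell type markers, each library relative to the mean of the WT libraries on a log axis (gray WT, orange MLX KO, 3 libraries each). The genotypes are apart in each row shown. The 3 steps of the pathway at which most members rose and the isoprenoid step lie to the right, less far than the Leydig and Sertoli sums. The squalene step lies to the left with the spermatocyte and spermatid sums. Sums follow their most abundant genes. In WT, *Cyp51* gave 129 of 211 CPM on average from lanosterol on, and *Fdft1* 462 of 623 CPM in the squalene step, where *Lss* rose. By median LFC the lanosterol step was at 0.83, the Sertoli markers at 0.69 and the Leydig markers at 1.16. The macrophage markers were at 1.35, the peritubular myoid markers at 0.555 and the endothelial markers at 0.292. Differences between these lists were not tested.

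Promoters of the members were read for motifs in the 250 bases before the annotated start, in the RefSeq annotation of GRCm38.p6, on both strands. A promoter was matched for 25 of the 30 members, and not for *Fdft1*, *Fdps*, *Npc1*, *Sqle* and *Stard4*. The E-box CACGTG, the core that MLX dimers and related factors can bind, was in 5 of the 25, against 6.86% of 27025 genes with a promoter. All 5 genes, *Scap*, *Insig1*, *Hsd17b7*, *Sc5d* and *Dhcr7*, are among the 16 members with a promoter that rose, and 0 of the other 9 have it. The stretches around these motifs are shown because they are the 5 places in the members' promoters with the full E-box, given 5′ to 3′ on the strand of the gene with the motif in capitals.
Hsd17b7: acccttgtgtCACGTGgctccgcccc
Insig1: tgggtgaggtCACGTGgctccggtgg
Dhcr7: ctgtgatgaaCACGTGgcaaaaagca
Sc5d: acgcggcgacCACGTGaccgccgcga
Scap: ccgccgggagCACGTGtggagggcgg

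The windows lie, in the order of these lines, at chr1:169969333-169969358, chr5:28071301-28071326, chr7:143823225-143823250, chr9:42264383-42264408 and chr9:110333306-110333331, and the motif starts 143, 101, 164, 98 and 40 bases before the transcript start that the promoter was taken from. *Hsd17b7* and *Sc5d* are on the minus strand and the other 3 genes on the plus strand. For *Hsd17b7*, *Dhcr7* and *Scap* this is not the outermost start of the gene. The motifs of *Dhcr7* and *Scap* lie downstream of the outermost start, within the annotated gene, and that of *Hsd17b7* lies upstream of it. SREBP2 binds sterol response elements, here searched as TCACNCCAC. Of the 25 members only *Hmgcs1* has these letters, against 1.22% of all genes, and its element is shown in capitals as the classic site of this family.
Hmgcs1: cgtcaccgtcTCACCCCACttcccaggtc

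It lies at chr13:119690204-119690232 on the plus strand, 137 bases before the start. The letters are a strict form of the element, and a promoter without them is not shown to lack a site. NF-Y and SP1 bind beside SREBP2 at many of its targets. NF-Y recognizes CCAAT, and SP1 the sequence GGGCGG, called the GC box. The first was in 23 of the 25 members' promoters (92.0%) against 37.49% of all genes, and the GC box in 21 (84.0%) against 35.36%. For every motif, all genes means each gene with a promoter, whether or not it was tested, while the members were all tested. Shares among tested genes alone were not computed. Among the 16 members that rose 14 have CCAAT and 14 have the GC box, and among the other 9 it was 9 and 7. The sequence TGACGTCA, the full element of the CREM and CREB factors, was in 0 of 25 and in 1.77% of all genes. The E-box and the CREM element read the same on both strands, and none of the motifs contains another. A match in letters is no measure of binding.

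The promoters of the 2 members with the largest increases are given as examples, *Msmo1* with both motifs and *Lipa* with CCAAT alone, 250 bases each on the minus strand, with these motifs in capitals on whichever strand they lie. That of *Msmo1*, at chr8:64733579-64733828, holds 3 CCAAT and 2 GC boxes. That of *Lipa*, at chr19:34527475-34527724, holds 1 CCAAT, on the other strand, and no GC box.
Msmo1: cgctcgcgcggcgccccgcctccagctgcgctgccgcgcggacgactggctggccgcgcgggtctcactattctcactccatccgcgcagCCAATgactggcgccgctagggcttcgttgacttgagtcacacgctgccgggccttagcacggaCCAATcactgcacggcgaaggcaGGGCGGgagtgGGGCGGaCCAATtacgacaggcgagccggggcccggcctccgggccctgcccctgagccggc
Lipa: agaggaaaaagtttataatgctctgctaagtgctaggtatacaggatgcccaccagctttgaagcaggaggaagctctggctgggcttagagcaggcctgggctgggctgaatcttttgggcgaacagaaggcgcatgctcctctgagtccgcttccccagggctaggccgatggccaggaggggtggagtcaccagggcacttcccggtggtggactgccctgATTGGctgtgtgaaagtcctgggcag

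The other genes of the pathway were read from a list of 41, of which 37 had enough counts. *Faxdc2* and *Cyb5a* have no row in the table used here, and *Idi2* and *Soat2* had too few counts. Of the 37, 16 rose and 4 fell, with a median LFC of 0.20, against the same 24.8% and 20.6% of all genes. With the littermate pair as a block in DESeq2, 10 rose and 4 fell, while of all 14640 genes tested 2249 rose and 2355 fell.

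By role, 4 of 10 further genes of sterol synthesis and its branches rose (median LFC 0.18), 3 rose and 2 fell of 9 genes for SREBP processing and reductase degradation (median LFC 0.13), and 5 rose and 2 fell of 14 for uptake, transport and storage (median LFC 0.14). All 4 genes tested for proteins that pass electrons to the sterol enzymes or partner with them rose, with a median LFC of 0.69. *Pgrmc1*, whose product binds heme and partners with CYP51 and other P450 enzymes, had 119.6, 126 and 122 CPM in WT and 174, 234 and 206 CPM in MLX KO testes (LFC 0.74, adjusted p = 9.06e-05 from edgeR). *Por*, the P450 reductase gene, had 22.6, 22.1 and 22.5 CPM in WT and 29.1, 42.4 and 34.3 CPM in MLX KO testes (LFC 0.65, adjusted p = 0.00103 from edgeR). *Cyb5r3*, the cytochrome b5 reductase gene, had 45.3, 44.9 and 56.0 CPM in WT and 68.2, 93.4 and 82.1 CPM in MLX KO testes (LFC 0.74, adjusted p = 0.000411 from edgeR). In all 3 genes KO1 was the lowest and KO2 the highest of the MLX KO libraries, and no WT library reached them. These proteins also serve steroid synthesis and the metabolism of foreign compounds.

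In transport and storage, *Stard5*, a sterol carrier gene related to *Stard4*, had 5.80, 5.66 and 6.65 CPM in WT and 11.4, 18.3 and 20.0 CPM in MLX KO testes (LFC 1.45, adjusted p = 0.000164 from edgeR). *Nceh1*, which encodes a hydrolase of stored cholesterol esters, had 4.38, 4.45 and 4.23 CPM in WT and 6.14, 8.57 and 6.51 CPM in MLX KO testes (LFC 0.70, adjusted p = 0.00389 from edgeR). In both, all MLX KO libraries were above all WT libraries. The 4 genes that fell, named after their values were seen, were *Rnf139* (LFC -0.40), *Erlin1* (LFC -0.22), *Tmem97* (LFC -0.21) and *Gramd1c* (LFC -0.20). *Rnf139* and *Erlin1* act in the degradation of sterol-regulated proteins in the endoplasmic reticulum, *Gramd1c* belongs to a family of sterol transporters, and *Tmem97* encodes a partner of NPC1. Each of the 4 was above 50 CPM in every library.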

How the data were processed

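Total RNA of 6 whole testes samples, 3 WT and 3 MLX KO, was sequenced as 50-base read pairs. The authors aligned reads to mm10 with TopHat and deposited a table of raw counts per gene symbol and library. The submitters' processing notes also list bcl2fastq 1.8.4, Bowtie2, DESeq2 and bedtools. The counting tool, its annotation and its strand setting are not given in the sources used here. The deposited table also holds a mean signal over libraries, a log2 fold change, its standard error, a test score, a p-value and an adjusted p-value of the authors' own comparison, which were not used. Of its 17933 rows, 2 repeated another row and were dropped, and 0 columns of per-sample values were without a sample.

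Counts were tested in R 4.3.3 with edgeR 4.0.16: genes kept by its filter at a minimum count of 10, TMM scaling, a two-sided quasi-likelihood test of genotype with no other term, and Benjamini-Hochberg adjusted p-values over 14640 genes. The code was tested on simulated data. A gene was called at an adjusted p under 0.05. CPM values were divided by exon length from GENCODE M21 where genes were compared. Coordinates and promoters are those of RefSeq for GRCm38.p6, the assembly of mm10. Per the labels the replicates are paired, and the study's methods describe littermates. Deviations from the group means correlated across genes at 0.145, 0.0363 and 0.121 between libraries of the same number and at most at 0.0330 between others. Pair 2 is thus not separated from WT3 with KO2, at 0.0330, and deviations from a mean of 3 libraries are not independent. As the labels give pairs, the number was also used as a block. Libraries of a genotype gave chi-squares of 2.73 to 8.23 per degree of freedom, above sampling noise, so none was counted as a duplicate. At between 16674700 and 19742700 counts a library, counting error is small for abundant genes. It is larger for scarce members, as for *Tm7sf2* with 70 to 165 counts a library and *Mylip* with 28 to 54.

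All 30 members are named. Of the other pathway genes the text names those past the threshold with an absolute LFC over 0.5, apart from 2 that are not reported here, and the 4 that fell. The members, lists and alternatives were chosen with earlier results of these data known. The 14 alternatives were DESeq2 1.42.0, its size factors in edgeR, library size alone, upper-quartile factors, no filter, at least 1 CPM in 3 libraries, the replicate block in edgeR and in DESeq2, and each of the 6 libraries left out in turn.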

Additional observations from a re-analysis of the deposited data

How the results depend on the processing

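Of the 30 members, 22 had the same call in all 14 alternatives and 24 the same direction, and 16 of the 19 members past the threshold kept their call in all 14. The number of members that rose was 23 with library size alone, 18 with the replicate block in edgeR, 17 with the block in DESeq2 and 17 to 20 with 1 library left out. The number that fell was 0 with library size alone and 0 to 1 with 1 library left out, *Fdft1* being lost without WT2 or KO2. Scaling by library size alone moved the median LFC of all genes from 0.03 to 0.16 and that of the members from 0.47 to 0.61, and turned the LFC of *Insig2* to 0.11, *Pmvk* to 0.04, *Sqle* to 0.09 and *Osbp* to 0.10, none past the threshold. With 1 library left out, the LFC of *Mvk* was between -0.03 and 0.09 and that of *Idi1* between -0.02 and 0.06, the lowest without KO1, and that of *Idi1* was -0.00 with the block in DESeq2. Of the other pathway genes, 1 fell with library size alone, 10 rose with the block in DESeq2, and 11 to 17 rose and 3 to 4 fell with 1 library left out. Of the somatic markers 0 fell with the block in DESeq2 and 0 to 1 with 1 library left out, *Fcgr3* being lost without WT2. Of the germ cell markers 1 rose with DESeq2, with its size factors, with no filter and with the block in DESeq2, 1 to 2 rose with 1 library left out, and 15 fell with library size alone, against 27 in the main analysis and 19 to 28 with 1 library left out. Of all genes, 5343 rose and 1268 fell with library size alone, and 2249 rose and 2355 fell with the block in DESeq2, against 3634 and 3015, with 2978 to 3990 and 2134 to 3405 when 1 library was left out. The cause of these shifts was not tested. With the pairing as a block in edgeR no member's call changed. *Mylip*, with the fewest counts, had the largest SE of the members.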
